A study of Mus musculus with 6 samples.

Results

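The BAF complex, the mammalian SWI/SNF chromatin remodeller, is described here through 10 of its subunit genes, Smarca4, Smarca2, Smarcb1, Smarcc1, Smarcc2, Smarcd1, Smarcd2, Smarcd3, Smarce1 and Arid1a. They were selected by name, though with earlier results of these data known. Matched by symbol to Ensembl identifiers in the deposited matrix of 21666 genes, all 10 had a row. All 10 also passed the low-count filter that left 15518 genes to test. The libraries came from skeletal muscle satellite cells, the stem cells of muscle, taken into culture from mice and differentiated for 2 days. There were 3 libraries from wild-type (WT) mice and 3 from mice lacking the long noncoding RNA lncMREF (KO). The labels give no other allele or agent for either group, and neither the strain, age and sex of the mice nor the way the knockout was made. Since no label ties a replicate to an animal of its own, p-values describe the spread among these libraries alone, and that spread may be technical. Library totals ran from 17919826 to 28430678 counts.

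BAF complexes use the energy of ATP to slide and evict nucleosomes, which opens promoters and enhancers to transcription factors. Each complex holds a single ATPase, either Smarca4 (BRG1) or Smarca2 (BRM). A further module sets its type, such as Arid1a or Arid1b in the canonical form. The core of the canonical form holds Smarcb1, Smarcc1, Smarcc2, a BAF60 protein and Smarce1. The BAF60 position is filled by the product of Smarcd1 (BAF60a), Smarcd2 (BAF60b) or Smarcd3 (BAF60c). In muscle, BAF60c is known as a partner of the myogenic factor MyoD at muscle genes, and exchange among BAF subunits accompanies differentiation in several lineages.

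The subunit genes did not move as a block. Smarcd3 was 2.05-fold lower in KO, whereas Smarcd1, Smarcd2, Smarcb1, Smarca2, Arid1a, Smarcc2 and, by a small and unstable margin, Smarca4 were higher in KO. Smarcc1 was slightly lower and Smarce1 was not called. By edgeR's quasi-likelihood test with Benjamini-Hochberg adjustment over all genes tested, 9 of the 10 had an adjusted p under 0.05, 7 higher and 2 lower. Across all genes tested the same rule called 66.7%, with 33.7% higher and 33.0% lower, so the number of subunits called says little by itself. The median log2 fold change was 0.31 over the 10 genes and 0.02 over all genes tested. CPM are counts per 1000000 of a library's total, scaled by TMM, which evens out differences in composition between libraries. CPM ranges of the genotypes did not overlap for 9 of the 10, against 69.4% of all genes tested.

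**Figure D1:**
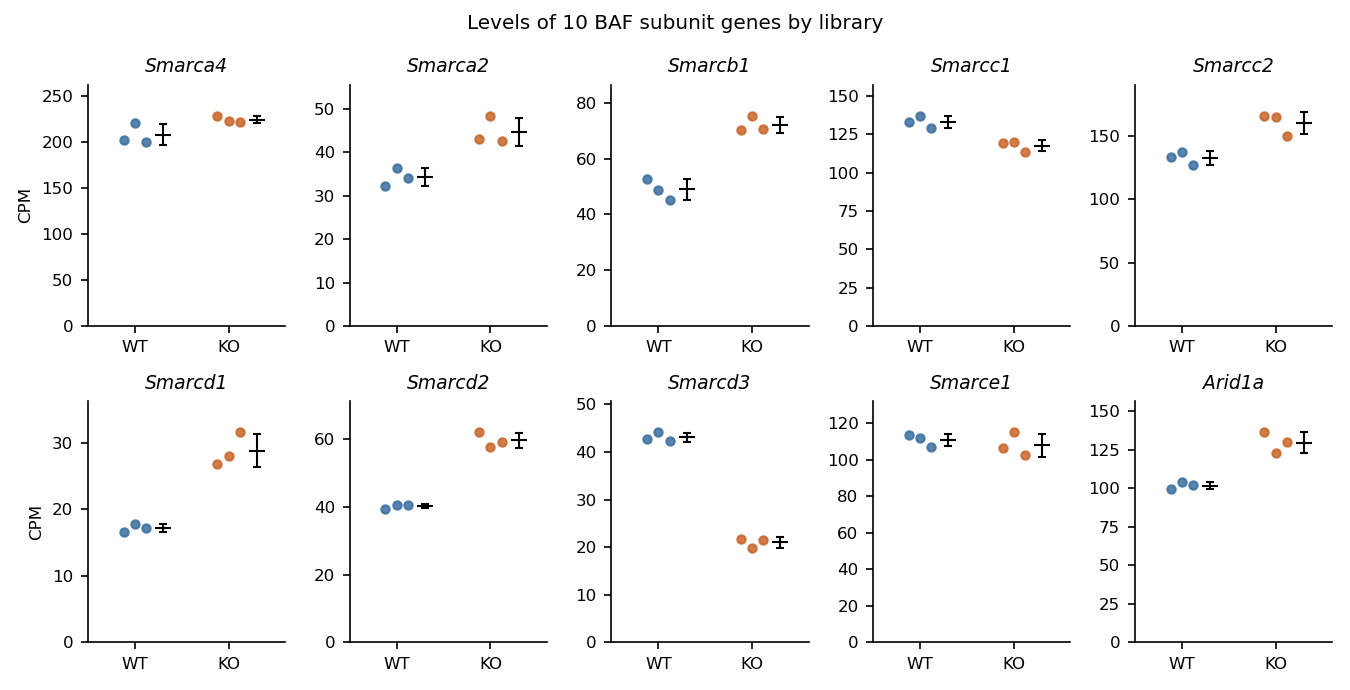
Levels of the 10 BAF subunit genes in CPM (counts per 1000000 after TMM scaling, linear axis from 0) in each WT and KO library, with the mean ± SD of 3 libraries beside the points. Smarcd3 lies between 42.2 and 44.1 CPM in WT and between 19.7 and 21.8 in KO, whereas Smarcd1 and Smarcd2 lie higher in every KO library than in any WT library.

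The BAF60 genes gave the widest contrast. Smarcd3 (ENSMUSG00000028949, chromosome 5, 24590818 to 24624411, minus strand, mm10) stood at 42.8, 44.1 and 42.2 CPM in WT replicates 1 to 3 and at 21.8, 19.7 and 21.5 in KO replicates 1 to 3. The KO values all lay below the WT values, with a wide gap. Means were 43.0 ± 0.939 CPM in WT and 21.0 ± 1.10 in KO (SD, n = 3 each). Smarcd3 thus fell by 1.04 on the log2 scale (SE 0.07, edgeR adjusted p 6.92e-16). Of all genes tested, 9.38% were called lower by over 2-fold.

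Smarcd1 (ENSMUSG00000023018, chromosome 15, 99702129 to 99713991, plus strand), the least abundant of the BAF60 genes in WT, moved the other way. It stood at 16.6, 17.8 and 17.2 CPM in WT and at 26.9, 28.1 and 31.6 in KO. Every KO library was above every WT library, and the KO libraries were the more scattered. The log2 fold change was 0.74 (SE 0.08, edgeR adjusted p 1.89e-10), or 1.67-fold higher. Smarcd2 (ENSMUSG00000078619, chromosome 11, 106263179 to 106272972, minus strand) stood at 39.5, 40.5 and 40.4 CPM in WT and at 62.0, 57.7 and 59.3 in KO, again without overlap. It rose by 0.57 on the log2 scale (SE 0.06, edgeR adjusted p 8.55e-11), or 1.49-fold. Smarcd1 and Smarcd2 thus rose while Smarcd3 fell in the same libraries.

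The paralogues were also compared within each library, as log2 ratios of CPM + 0.5, which depend on the scaling of libraries only through the pseudocount. The ratio of Smarcd3 over Smarcd1 was 1.34, 1.28 and 1.27 in WT and -0.30, -0.50 and -0.54 in KO. Smarcd3 had more counts than Smarcd1 in all WT libraries and fewer in all KO libraries, an order that takes no account of gene length. The difference was -1.74 (SE 0.08), a 3.35-fold lower ratio in KO. The ratio of Smarcd3 over Smarcd2 went from 0.10 ± 0.03 to -1.48 ± 0.04 (SD, n = 3 each), a difference of -1.58 (SE 0.03). The ratio of Smarcd2 over Smarcd1 moved little, from 1.20 ± 0.03 to 1.04 ± 0.15, and its ranges overlapped. In the exact two-sided permutation test over libraries, the ratios of Smarcd3 over Smarcd1 and over Smarcd2 each gave p = 0.1, the smallest that 3 against 3 libraries allow, and 0.12 after adjustment over the 6 ratios compared. Smarcd2 over Smarcd1 gave an exact p of 0.2 (adjusted 0.2), with a difference of -0.16 (SE 0.09), which does not show that the pair changed alike.

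**Figure D2:**
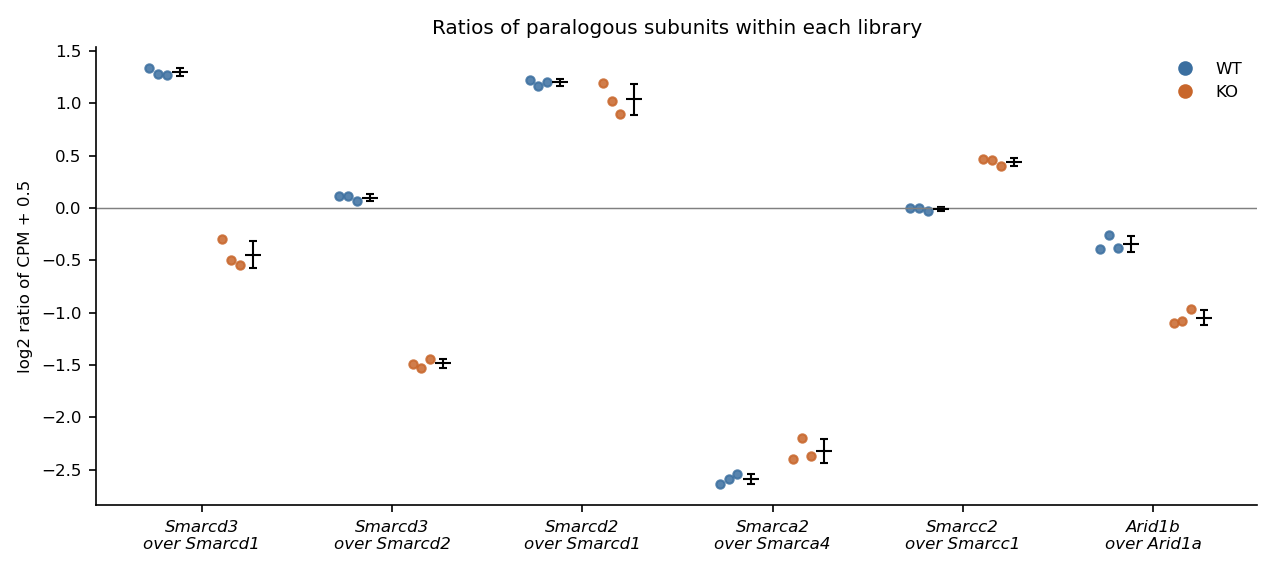
Log2 ratio of CPM + 0.5 between paralogous subunits within each library, by genotype, with the mean ± SD of 3 libraries beside the points. The ratios of Smarcd3 over Smarcd1 and Smarcd2 differ in KO by -1.74 and -1.58, and Smarcd2 over Smarcd1 is the only pair of the 6 whose genotypes overlap.

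Levels of different genes were compared per length, as CPM per kilobase of exon. On that scale Smarcd3 made up 35.6%, 35.4% and 34.7% of the summed BAF60 level in the WT libraries and 15.1%, 14.3% and 14.7% in the KO libraries. Smarcd2 was the largest share in all 6, rising from 46.9% ± 0.453 to 59.6% ± 1.70, and Smarcd1 went from 17.9% ± 0.310 to 25.7% ± 1.91 (SD, n = 3 each). No share overlapped between genotypes, and each gave the smallest exact two-sided permutation p of 0.1 (0.1 adjusted over the 3 shares). These percentages rest on the exon length used. With the transcript that has the longest coding sequence, a length chosen after seeing the data, Smarcd3 is the largest share in WT at 55.6% ± 0.510 and falls to 28.5% ± 0.598. On that length Smarcd3 stays above Smarcd1 in KO (20.5% ± 1.59), whereas with all exons it lies below. The summed level itself turned direction with that choice, from 23.9 ± 0.428 in WT and 27.9 ± 0.868 in KO per kilobase of all exons to 44.6 ± 0.808 and 42.5 ± 1.45 per kilobase of the coding transcript.

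**Figure D3:**
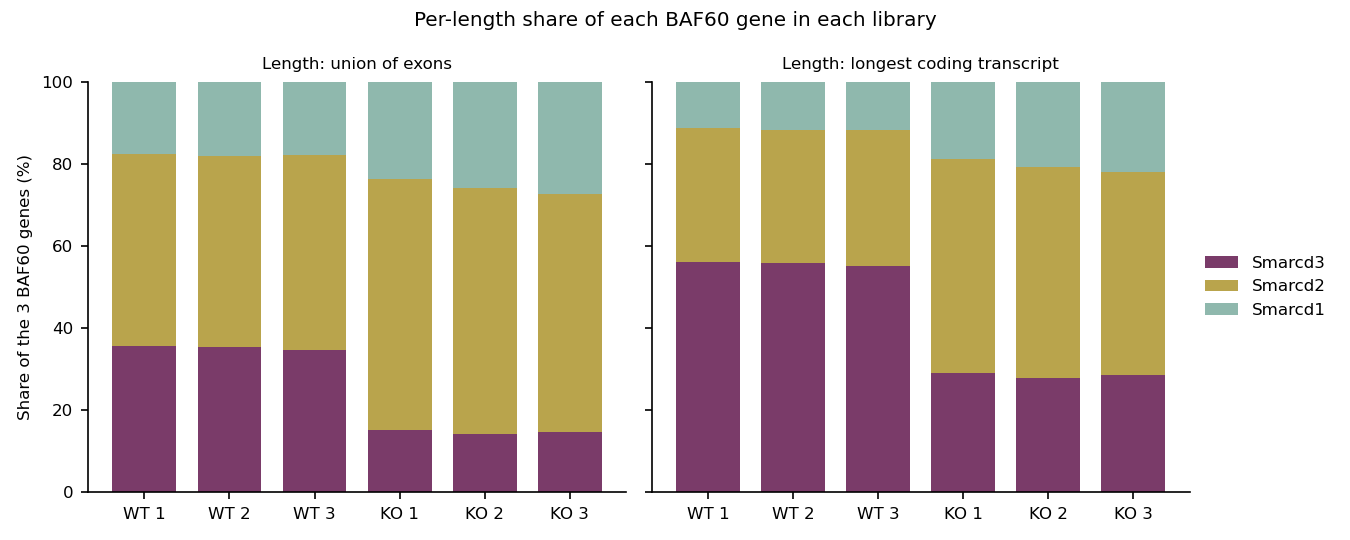
Stacked bars give the percent of the summed per-length level of Smarcd1, Smarcd2 and Smarcd3 that each gene held in each library, on the left with the union of all exons as length and on the right with the transcript of longest coding sequence. Smarcd3 takes 34.7% to 35.6% in WT and 14.3% to 15.1% in KO on the left, and is smaller in KO on the right as well.

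The Smarcd3 counts carry a limit of position. Its annotated exons share 48.2% of their bases with another gene, Chpf2, a chondroitin polymerising factor gene on the opposite strand, and with Mir671 inside Chpf2. Of all 50-base stretches in the Smarcd3 transcript of longest coding sequence, 24.6% also occur in Chpf2 transcripts when strand is ignored, and 0% on the same strand. The sources used here do not say whether counting used strand. Chpf2 itself moved the other way, from 55.1 ± 1.43 to 61.7 ± 3.53 CPM (log2 fold change 0.16, SE 0.06, edgeR adjusted p 0.0119). Smarcd1 shares 12.7% of its exonic bases with Gm34939 and Gm17349 on the opposite strand, of which Gm34939 had 0 to 2 counts per library, and Smarcd2 shares none. No stretch of 50 bases was common to any pair of the 10 subunit transcripts on either strand, so paralogues in this family have no identical stretch of that size.

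The promoter windows of the BAF60 genes are shown because these paralogues fill the same position and moved in different directions. The RefSeq table held a window for 9 of the 10 subunit genes (GRCm38.p6, the build called mm10; 250 bases before to 50 after an annotated start, 5′ to 3′ on the gene's strand). Capitals mark the motifs searched on both strands: the E-box CANNTG, bound by MyoD and other basic helix-loop-helix factors and including its form CAGCTG, and the E2F forms TTTCCCGC and TTTGGCGC. Smarcd3 (chr5:24601953-24602252, minus strand), Smarcd2 (chr11:106267583-106267882, minus strand) and Smarcd1 (chr15:99702037-99702336, plus strand) read as follows.
Smarcd3: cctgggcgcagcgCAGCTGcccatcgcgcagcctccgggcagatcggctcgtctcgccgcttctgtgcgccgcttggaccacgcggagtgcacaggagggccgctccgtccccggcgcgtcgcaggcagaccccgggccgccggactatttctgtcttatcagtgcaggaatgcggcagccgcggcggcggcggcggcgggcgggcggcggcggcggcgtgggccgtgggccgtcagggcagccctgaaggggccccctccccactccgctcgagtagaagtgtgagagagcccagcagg
Smarcd2: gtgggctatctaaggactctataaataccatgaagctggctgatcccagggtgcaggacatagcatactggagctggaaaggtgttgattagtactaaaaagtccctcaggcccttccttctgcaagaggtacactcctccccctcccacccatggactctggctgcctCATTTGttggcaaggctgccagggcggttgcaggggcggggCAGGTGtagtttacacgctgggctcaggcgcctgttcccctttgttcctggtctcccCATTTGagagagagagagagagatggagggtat
Smarcd1: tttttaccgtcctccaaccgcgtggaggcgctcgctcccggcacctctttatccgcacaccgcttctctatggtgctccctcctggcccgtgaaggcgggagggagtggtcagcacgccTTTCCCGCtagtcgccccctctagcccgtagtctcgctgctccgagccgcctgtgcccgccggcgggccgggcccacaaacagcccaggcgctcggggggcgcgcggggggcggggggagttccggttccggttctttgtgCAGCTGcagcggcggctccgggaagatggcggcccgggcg
The Smarcd3 window holds 1 E-box, of the form CAGCTG, the Smarcd1 window holds 1 of the same form, and the Smarcd2 window holds 3 E-boxes of other forms. Smarcd1 alone of the 3 holds an E2F form, TTTCCCGC. Over all 32851 windows of the table, 72.3% hold an E-box, 16.3% the form CAGCTG, 1.07% TTTCCCGC and 0.514% TTTGGCGC. The Smarcd3 and Smarcd1 windows are rich in G and C (74.7% and 71.3%) with 40 and 35 CG pairs, whereas the Smarcd2 window has 55% and 4. The Smarcd2 window lies 5340 bases inside the outermost start in GENCODE M21 and the Smarcd3 window 22409 bases inside it, and which start was used in these cells was not tested.

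The ATPase genes rose by unequal amounts. Smarca2 (ENSMUSG00000024921, chromosome 19, 26605050 to 26778322) stood at 32.2, 36.4 and 34.1 CPM in WT and at 43.1, 48.4 and 42.6 in KO, without overlap. Its log2 fold change was 0.39 (SE 0.07, edgeR adjusted p 2.83e-06). Smarca4 (ENSMUSG00000032187, chromosome 9, 21616169 to 21704230) was the more abundant ATPase gene, at 203, 221 and 201 CPM in WT and 229, 223 and 223 in KO. WT replicate 2 lay just below the lowest KO library. Its log2 fold change of 0.11 (SE 0.04, edgeR adjusted p 0.0277) was no longer called when WT replicate 1 was left out (0.08, adjusted p 0.210), nor when WT replicate 3 (0.07, 0.247) or KO replicate 1 (0.10, 0.0909) was, and its adjusted p ran from 8.35e-07 to 0.247 over 13 other settings. Per kilobase of all exons, Smarca4 stood at 32.2 ± 1.75 and Smarca2 at 2.40 ± 0.146 in WT. The gap depends on the length used. Per kilobase of the transcript with the longest coding sequence, Smarca4 stood at 32.7 ± 1.77 and Smarca2 at 5.84 ± 0.355 in WT. The log2 ratio of Smarca2 over Smarca4 went from -2.59 ± 0.05 to -2.32 ± 0.11 (SD, n = 3 each), a difference of 0.27 (SE 0.07; exact permutation p 0.1, adjusted 0.12).

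The scaffold paralogues Smarcc1 (BAF155) and Smarcc2 (BAF170), which brace the core, moved in opposite directions. Smarcc1 (ENSMUSG00000032481, chromosome 9, 110117708 to 110240178) stood at 133, 137 and 129 CPM in WT and at 119, 119.7 and 114 in KO. Smarcc2 (ENSMUSG00000025369, chromosome 10, 128459248 to 128490482) stood at 133, 137 and 127 CPM in WT and at 166, 165 and 149.9 in KO. In WT the pair had nearly equal CPM in every library, and in KO Smarcc2 was the higher in each. CPM take no account of gene length, however. Per kilobase of all exons, Smarcc2 was already the higher in WT, at 23.8 ± 0.940 against 17.0 ± 0.485. It was also the higher in WT with each other length tried. The log2 fold changes were -0.18 (SE 0.05, edgeR adjusted p 0.000826) for Smarcc1 and 0.28 (SE 0.05, adjusted p 3.30e-06) for Smarcc2. The fall of Smarcc1 depended on the scaling and was -0.0063 (adjusted p 0.906) with library size only. The log2 ratio of Smarcc2 over Smarcc1 within a library went from -0.0080 ± 0.02 to 0.44 ± 0.04, a difference of 0.45 (SE 0.02; exact permutation p 0.1, adjusted 0.12).

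The other core genes differed as well. Smarcb1 (BAF47, ENSMUSG00000000902, chromosome 10, 75896769 to 75921617), the core subunit that contacts the nucleosome, stood at 52.7, 48.8 and 45.3 CPM in WT and at 70.2, 75.3 and 70.5 in KO. It rose by 0.56 on the log2 scale (SE 0.06, edgeR adjusted p 1.81e-10), with every KO library above every WT library. Smarce1 (BAF57, ENSMUSG00000037935, chromosome 11, 99209047 to 99231017), which carries an HMG domain, stood at 114, 112 and 107 CPM in WT and at 107, 115 and 103 in KO. Its ranges overlapped and it was not called (-0.03, SE 0.05, edgeR adjusted p 0.544). The sign of Smarce1 flipped to 0.14 (adjusted p 0.0131) with library size only and to 0.15 (0.00364) with GC and length offsets. Of its 50-base stretches, 35.1% also occur in transcripts of 5 other genes, the processed pseudogene Gm8494 first. The Smarce1 counts may therefore depend on how reads with several matches were treated, which was not tested.

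Arid1a (BAF250A, ENSMUSG00000007880, chromosome 4, 133679008 to 133756769), the DNA-binding subunit of canonical BAF, stood at 99.3, 104 and 102 CPM in WT and at 136, 123 and 130.1 in KO. The KO libraries all lay above WT, and the log2 fold change was 0.35 (SE 0.05, edgeR adjusted p 5.95e-08). Its alternative partner in that position, Arid1b, went the other way, from 80.4 ± 5.80 to 62.7 ± 4.34 CPM (-0.36, SE 0.06, edgeR adjusted p 2.09e-06). The log2 ratio of Arid1b over Arid1a went from -0.34 ± 0.07 to -1.05 ± 0.08 (SD, n = 3 each), a difference of -0.70 (SE 0.06; exact permutation p 0.1, adjusted 0.12). Arid1b was thus below Arid1a in all 6 libraries and further below in KO.

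Per kilobase of all exons, the order of the 10 genes in WT was Smarca4, Smarcc2, Smarcc1, Smarce1, Smarcd2, Arid1a, Smarcd3, Smarcb1, Smarcd1 and Smarca2, from 32.2 ± 1.75 down to 2.40 ± 0.146 CPM per kilobase. Smarcc1 (17.0 ± 0.485) and Smarce1 (16.7 ± 0.501) were the only neighbours whose WT libraries overlapped. In KO, Smarcd2 moved to rank 3 at 16.6 ± 0.601, and Smarcd3 to rank 9 at 4.10 ± 0.215. The KO libraries of Smarcd2 overlapped those of Smarce1, next in order at 16.2 ± 0.958. With the transcript of longest coding sequence as length, Smarce1 ranked first in WT and Smarcb1 rose from rank 8 to rank 4, so the order holds for the stated length only.

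**Figure D4:**
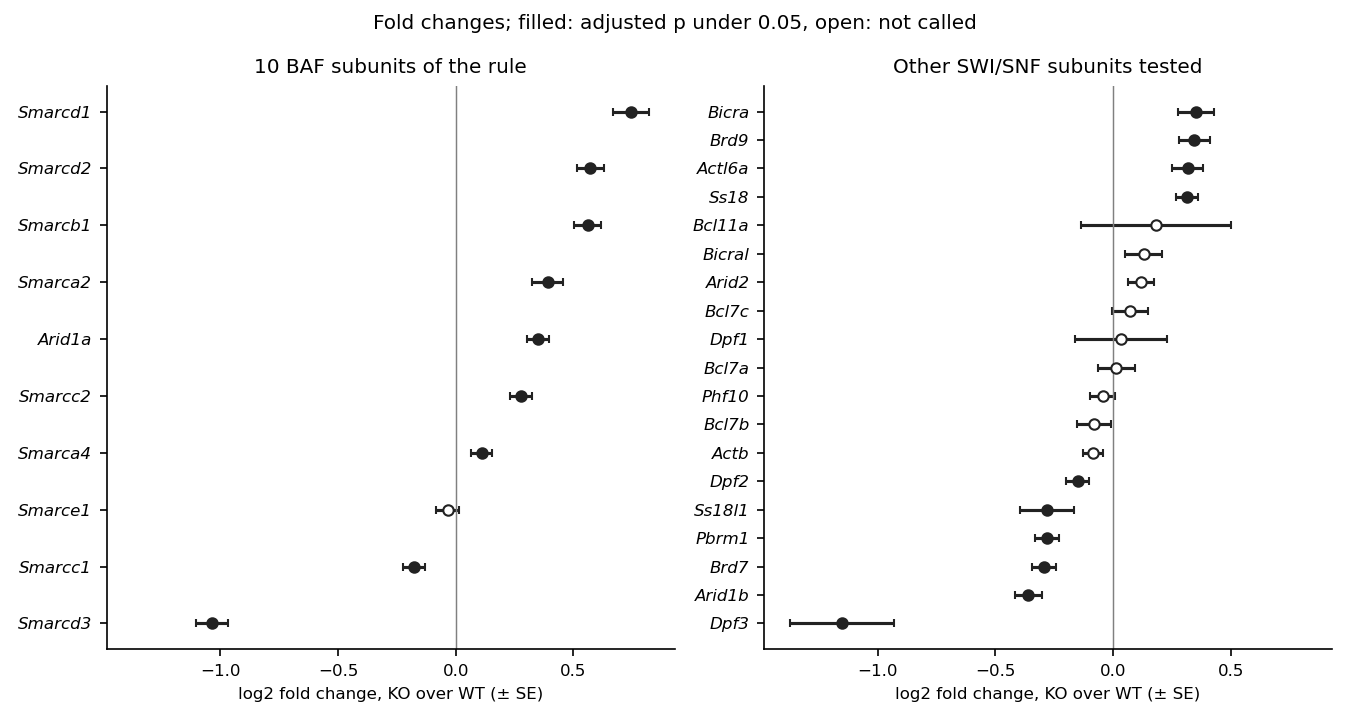
Log2 fold change of KO over WT with its SE for the 10 BAF subunits (left) and for the other SWI/SNF subunits tested (right), sorted by size; filled points were called at an adjusted p under 0.05. Smarcd3 at -1.04 and Dpf3 at -1.15 lie apart from the other genes of their panels.

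The remaining SWI/SNF genes split by sign and stayed small apart from Dpf3. Of 21 such genes listed, 19 were tested, and edgeR's test called 4 higher and 6 lower, with a median log2 fold change of 0.01. Over all genes tested 33.7% were called higher and 33.0% lower, with a median of 0.02. Genotypes did not overlap for 12 of the 19, against 69.4% of all genes tested, so neither count stands above the background. Actl6b, the neuronal actin-related subunit, was not analysed here, and Bcl11b, a lymphoid and neuronal factor found with BAF, had 3 to 11 counts per library and did not pass the filter.

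Among the canonical BAF and shared genes, Dpf3 (BAF45c), a histone-reading subunit known from heart and skeletal muscle, had 78, 49 and 101 counts in WT and 37, 32 and 29 in KO. Its CPM of 3.47, 2.58 and 3.77 against 1.68, 1.27 and 1.53 did not overlap, and the log2 fold change was -1.15 (SE 0.22, edgeR adjusted p 2.69e-05). Its paralogue Dpf2, found in most tissues, was lower by a small amount (-0.15, SE 0.05, adjusted p 0.00873), and Dpf1, of neurons, was low and not called (0.03, SE 0.20, adjusted p 0.887). The call of Dpf2 was lost without KO replicate 2 (-0.10, adjusted p 0.0784) and its sign flipped with library size only (0.02). Actl6a (BAF53a), the actin-related subunit of dividing progenitors, rose from 36.0 ± 2.10 to 45.0 ± 3.12 CPM (0.32, SE 0.06, edgeR adjusted p 5.58e-05); 11.6% of its exonic bases overlap Mrpl47. Ss18, a subunit of canonical and non-canonical BAF, rose from 94.0 ± 1.34 to 116.9 ± 4.06 CPM (0.31, SE 0.05, adjusted p 3.68e-07). Its neuronal paralogue Ss18l1 was lower at 7.72 ± 0.505 against 9.34 ± 0.809 CPM (-0.28, SE 0.11, edgeR adjusted p 0.0315). Leaving out WT replicate 1 (-0.23, adjusted p 0.129), leaving out WT replicate 3 (-0.29, 0.0533) or leaving out KO replicate 2 (-0.22, 0.129) each ended the call, as did DESeq2 (-0.29, 0.0622) and library size only (-0.11, 0.401).

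Of the genes specific to PBAF, the form with a polybromo subunit, Pbrm1 went from 108.8 ± 1.59 to 89.5 ± 6.98 CPM (-0.28, SE 0.05, edgeR adjusted p 1.01e-05) and Brd7, a bromodomain subunit, from 88.5 ± 0.785 to 72.2 ± 4.36 (-0.29, SE 0.05, adjusted p 6.55e-06). Arid2, its DNA-binding subunit, stood at 58.8 ± 1.66 and 63.7 ± 3.95 CPM and was not called (0.12, adjusted p 0.0601), though it passed once KO replicate 2 (0.15, 0.0345) or KO replicate 3 (0.14, 0.0403) was left out, with GC and length offsets (0.14, 0.0226) and with library size only (0.29, 2.43e-05). Phf10 was not called (-0.04, adjusted p 0.468), with its sign flipped under library size only (0.13, adjusted p 0.0299) and GC and length offsets (0.05). Of the genes specific to non-canonical BAF, Brd9, its bromodomain subunit, rose from 28.7 ± 0.772 to 36.5 ± 1.87 CPM (0.34, SE 0.07, edgeR adjusted p 1.98e-05) and Bicra (GLTSCR1) from 22.5 ± 1.86 to 28.5 ± 2.52 (0.35, SE 0.08, adjusted p 0.000151). Bicral, the paralogue of Bicra, was not called (0.13, adjusted p 0.138), though it was with library size only (0.30, 0.000850). No difference between the complex types was tested.

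The accessory genes Bcl7a, Bcl7b and Bcl7c had log2 fold changes of 0.01, -0.08 and 0.07 (adjusted p 0.317 to 0.879) and the cytoplasmic and BAF actin Actb -0.08 (adjusted p 0.0824), none called. Bcl11a, near 1 CPM, was not called either (0.18, SE 0.32, adjusted p 0.632). The signs of Actb and Bcl7b flipped with library size only (both 0.09), and Actb was called lower once KO replicate 2 (-0.10, adjusted p 0.0393) or KO replicate 3 (-0.12, 0.0258) was left out, and with GC and length offsets (-0.16, 0.000493) or no low-count filter (-0.10, 0.0201). With library size only, Bcl7a (0.19, adjusted p 0.0337) and Bcl7c (0.24, 0.00642) were called higher.

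Genes whose pattern was most like each BAF60 gene were found by the mean absolute difference of centred log2 CPM over the 6 libraries. For Smarcd3 they included C1qtnf3 (0.017) and Prune1 (0.021). For Smarcd2 they were Tbc1d5 (0.015), Cilp (0.017) and Tnfrsf1b (0.018), and for Smarcd1 they were Lss (0.039), Trim37 (0.040) and Plekhf1 (0.042). With only 2 genotypes, likeness here mostly reflects an equal difference between them.

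Scaling bears on all these values. With library size only in place of TMM, the all-gene median became 0.19 in place of 0.02, and the share of calls that were higher in KO became 66.1% in place of 50.5%. On that scale 8 of the 10 subunits were higher and 1 lower, where 70.4% of all genes tested were called in either direction and 46.6% higher, and Smarcd3 was still lower at -0.86. Relative to the median of all genes, Smarcd3, Smarcd1, Smarcd2, Smarcb1, Smarca2, Arid1a and Smarcc2 kept their direction under each of the 13 settings. So did Smarcc1 and Smarca4, though the call of Smarcc1 was lost with library size only and that of Smarca4 in several settings. Smarce1 changed side, at 0.15 with GC and length offsets against a median of 0.0047.

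**Figure D5:**
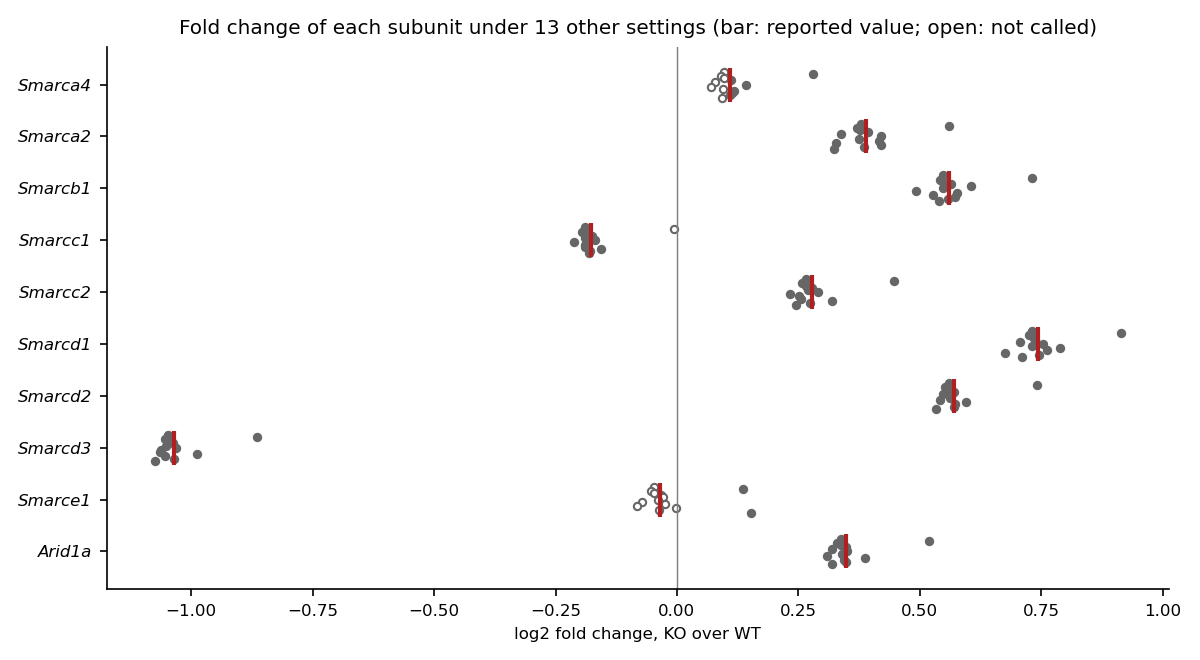
Log2 fold change of each of the 10 subunits under 13 other settings (grey points; open where not called) beside the reported value (red bar). The isolated point at the right of most rows is library size only, and the open points of Smarca4 show how often its call was lost.

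The libraries differed in cell state and in markers of other cells along with genotype. Of 10 myogenic markers 8 were lower and 1 higher in KO, with a summed level of 16447 to 17089 CPM in WT and 3635 to 3900 in KO, and all 5 cycling markers were higher (78.4 to 81.5 against 351 to 392 CPM). Among myogenic transcription factors, Myod1 fell by 1.69, Mef2c by 1.71, Myog by 1.26 and Mef2d by 0.95 on the log2 scale, beside 1.04 for Smarcd3. Not all such factors fell. Pax7 was the myogenic marker called higher (0.53, edgeR adjusted p 1.12e-05), and Myf5 was not called (-0.15, adjusted p 0.346). All 5 endothelial markers were lower (270.3 to 278 against 63.1 to 67.3 CPM), all 5 macrophage markers were higher (99.2 to 108 against 319 to 334), and 4 of 5 Schwann markers were higher (199 to 206 against 715 to 720.2). Of 4 fibro-adipogenic markers 2 were higher and 1 lower (6915 to 7064 against 7484 to 8023 CPM). No marker was at 0 in all libraries. Xist went from 154 ± 1.54 to 457 ± 35.0 CPM and 3 of 4 Y-linked genes were lower, and the mitochondrial share was 3.97% to 4.18% of counts in WT and 2.07% to 2.30% in KO. The part of these differences in the subunit values was not tested, and in bulk RNA fewer cells of a type and less RNA per cell cannot be told apart.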

How the data were processed

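RNA was measured by RNA-seq in 3 WT and 3 KO libraries. The deposited matrix holds raw counts for each Ensembl gene. Per the submitters' processing notes, the authors used HISAT2 2.2.1, featureCounts 2.0.1 and mm10; the sources used here do not give strand or annotation settings. Genes were matched to GENCODE M21 (mm10) by identifier (21632 of 21666). After filterByExpr (minimum count 10, minimum total 15), KO was compared with WT in edgeR 4.0.16 (R 4.3.3) with TMM scaling, a robust quasi-likelihood F-test and Benjamini-Hochberg adjustment over 15518 genes (adjusted p under 0.05). The fit was tested on simulated data. The SE of a log2 fold change was derived from its F statistic. DESeq2 1.42.0, limma 3.58.1 (voom) and other settings were alternatives. Exon overlap used bedtools 2.31.1, permutation tests scipy 1.17.1 (pseudocount 0.5). Within-group replicates differed beyond sampling noise (mean chi-square per gene 3.18 to 5.11). The per-library count tables, also deposited by the authors, were set aside (see the closing section). All 10 subunits, all 21 listed other subunits, fixed context genes and the 3 nearest patterns per BAF60 gene are named, except 1 gene that is not reported here; members and lists were chosen with earlier results of these data known.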

Additional observations from a re-analysis of the deposited data

How the results depend on the processing

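Under 13 other settings, 8 or 9 of the 10 subunits were called, and 9 to 13 of the other SWI/SNF subunits, while 9625 to 11055 of all genes were, so these counts say little of the subunits themselves. Leaving out each library in turn gave 8 to 9 and 9 to 12. Smarca4 was not called with median-of-ratios scaling (0.10, adjusted p 0.0519), no low-count filter (0.090, 0.0734), DESeq2 (0.10, 0.0804) or GC and length offsets (0.093, 0.0516), and its fold change ran from 0.070 to 0.14 over the libraries left out. Smarcc1 was -0.0063 with library size only. Smarce1 was 0.14 with library size only and 0.15 with GC and length offsets. The cause was not tested. Reversed signs among the other subunits, none called in the reported test but Dpf2, were 0.13 and 0.051 for Phf10 (library size only; GC and length offsets), 0.020 for Dpf2, 0.086 for Actb and 0.089 for Bcl7b (library size only), and -0.0046 and -0.032 for Bcl7a (no low-count filter; GC and length offsets). Leaving out single libraries, the range crossed 0 for Dpf1 (-0.13 to 0.15), Bcl7a (-0.0062 to 0.022), Bcl7c (-0.028 to 0.15) and Bcl11a (-0.089 to 0.35). The paralogue ratios kept their direction with CPM + 5 and with each library left out. The BAF60 shares kept theirs with each other length tried and with each library left out. Neither was computed under the remaining settings, GC and length offsets among them. With CPM + 5 the difference in Smarcd3 over Smarcd1 was -1.49.

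No label gives a pairing of the libraries. Deviations from group means correlated at -0.00091, -0.0089 and -0.025 between same-numbered WT and KO libraries. Between differently numbered libraries they correlated at -0.010 to 0.020. These values show no sign of pairing by replicate number but cannot exclude it. With a replicate block 9 of the 10 subunits, 10 other subunits and 10209 genes were called.

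The per-library tables hold other counts under the same identifiers. None of the 10 subunits had a mean count there near that of the matrix (0 to 1.68 times it), so no result rests on them. Listed after seeing the data, 8 had a fold change there. Of these, 2 had the opposite sign, Arid1a at -0.34 (edgeR adjusted p 4.06e-05) and Smarcc1 at 0.11 (adjusted p 0.0798). Smarcd3 stood at -0.14 (adjusted p 0.0706).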
